A study of Mus musculus with 9 samples.

Results

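The genes described here encode 10 transporters that carry amino acids across the plasma membrane: *Slc7a5*, *Slc3a2*, *Slc7a11*, *Slc7a6*, *Slc7a1*, *Slc1a4*, *Slc1a5*, *Slc38a1*, *Slc38a2* and *Slc6a9*. They were taken by name, with earlier results of these data known. All 10 were found by their symbol among the 15552 protein-coding genes of the count table, each under 1 identifier, and all 10 passed the filter on low counts.

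Transcripts were counted in MyC-CaP cells, a prostate cancer line from a mouse tumor driven by a human MYC transgene under a prostate-specific promoter, that received recombinant neuregulin 1 (rNRG1), a ligand of the receptor HER3. Per the labels, cells were first starved for 6 to 12 hours in medium without serum or calcium and were then given 15 ng/mL rNRG1. They were harvested at 0, 12 and 24 h, with 3 biological replicates at each time. The 0 h cells were starved and had spent no time with rNRG1. Buffer-treated cells of the later times were not analysed here, and the hours with rNRG1 and the hours in the starvation medium cannot be told apart. MyC-CaP is a single line, so the replicates are wells of 1 cell line and p-values measure the spread between such libraries. Total counts ran from 28467089 to 37873433 at 0 h, from 30920755 to 36177889 at 12 h and from 30299344 to 39239760 at 24 h, and the share of mitochondrial counts from 1.41 to 1.498%, 1.12 to 1.18% and 1.21 to 1.36%. Replicate 3 at 12 h stood apart from the other 12 h libraries, with chi-square values per degree of freedom of 10.2 and 10.3 against 4.34 between replicates 1 and 2. Replicate 1 at 0 h differed from its group less strongly, with 7.64 and 6.76 against 4.22 between replicates 2 and 3. For the transporters, values without either library are given where the test result, the 1.5-fold call or the size turned on it. For other genes and for lists they are given only where stated. The labelled cell type was checked against luminal epithelial markers. *Foxa1*, *Hoxb13* and *Krt8* had means of 280.7, 84.3 and 18.2 CPM (counts scaled to library size by TMM) at 0 h. *Krt18*, the keratin that pairs with *Krt8*, was nearly absent at 0.253 CPM, with at most 17 counts in any library, as were the epithelial adhesion genes *Epcam* and *Cdh1*, with at most 3 and 4 counts.

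Amino acids are charged or polar and cross membranes only through carriers. SLC7 light chains such as LAT1 (*Slc7a5*) and xCT (*Slc7a11*) must pair with the heavy chain CD98hc (*Slc3a2*) to reach the cell surface, and they exchange 1 amino acid for another. The SLC1 carriers of this set exchange small neutral amino acids in a sodium-dependent way, and the SLC38 and SLC6 carriers use the sodium gradient for net uptake. Many of these genes are known targets of ATF4, the transcription factor of the amino acid response, which binds DNA together with C/EBP partners at a composite site, and *Slc7a11* is also a known target of the oxidative stress factor NRF2.

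Promoter sequence was available for 7 of the 10 genes, in 11 windows of 300 bases that run from 250 bases before to 50 bases after a transcription start (RefSeq, GRCm38.p6). *Slc7a5*, *Slc1a5* and *Slc38a1* had no entry. The C/EBP-ATF composite site, searched as TGATGNAA on both strands, was found in 3.97% of 32851 promoter windows of the mouse genome, and among the transporters in *Slc7a11* and *Slc1a4*. Both promoters are shown because they hold this site, and capitals mark the matches. *Slc3a2* and *Slc7a1*, whose windows also were searched and held no composite site, are not shown.

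Slc7a11 (chr3:50443564-50443863, minus strand): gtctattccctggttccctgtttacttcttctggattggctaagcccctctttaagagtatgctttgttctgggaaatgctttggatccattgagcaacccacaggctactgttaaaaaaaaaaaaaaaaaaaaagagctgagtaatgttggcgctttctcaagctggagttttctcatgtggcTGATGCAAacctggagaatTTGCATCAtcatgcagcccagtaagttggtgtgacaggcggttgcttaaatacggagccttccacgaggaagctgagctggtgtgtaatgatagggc

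Slc1a4 (chr11:20332664-20332963, minus strand): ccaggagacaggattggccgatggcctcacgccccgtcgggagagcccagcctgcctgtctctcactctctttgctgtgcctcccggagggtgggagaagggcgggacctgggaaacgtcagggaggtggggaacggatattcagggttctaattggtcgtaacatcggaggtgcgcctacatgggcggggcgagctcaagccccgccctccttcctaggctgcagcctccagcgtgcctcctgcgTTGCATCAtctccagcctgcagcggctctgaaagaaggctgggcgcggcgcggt

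The *Slc7a11* window held 2 matches, at bases 185 to 192 and, on the other strand, at bases 204 to 211, both counted from the 5′ end of the window. In *Slc1a4* the match lay at bases 247 to 254, on the strand opposite to the gene. An antioxidant response element core, searched as TGACNNNGC, was found in 12.4% of windows, and among the transporters in windows of *Slc38a2*, *Slc6a9*, *Slc7a1* and *Slc7a6*. *Slc6a9* and *Slc7a1* each also had a window without it, and the *Slc7a6* matches are the same site in overlapping windows. The E-box CACGTG was found in 7.15% of windows and in none of the 11. These letters are a description of the windows and not of a bound factor.

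To determine which transporter transcripts changed, the libraries at 12 and at 24 h were each compared with those at 0 h in edgeR, with p-values adjusted over all 11373 genes tested. At 12 h, 5 of the 10 transcripts were higher than at 0 h at an adjusted p of at most 0.05, namely *Slc3a2*, *Slc7a5*, *Slc7a11*, *Slc7a1* and *Slc1a4*, and 0 were lower. Over all genes tested, 25.5% passed that test, with 13.6% higher and 11.9% lower. At 24 h the same 5 transcripts passed together with *Slc6a9*, again with 0 lower, beside 17.4% of all genes, with 9.67% higher and 7.76% lower. Between 12 and 24 h, 0 of the 10 passed, beside 5.03% of all genes, with 1.97% higher and 3.06% lower. At an unadjusted p under 0.05, the edgeR counts were 5 higher and 0 lower at 12 h, 6 higher and 1 lower at 24 h, and 1 higher and 1 lower between 12 and 24 h. DESeq2, with its own adjusted p, gave 3 higher at 12 h, 5 higher at 24 h and 0 between the later times. The median log2 fold change of the 10 transcripts was 0.20 at 12 h and 0.19 at 24 h, against -0.0028 and -0.0065 over all genes, and leaving out replicate 3 at 12 h gave a 12 h median of 0.12. When replicate 1 at 0 h was left out, 4 passed as higher at each time. The libraries at 12 h all lay above those at 0 h for 5 of the 10 and all below for 1, beside 19.9% and 18.5% of all genes, and those at 24 h above for 6 and below for 1, beside 17.6% and 17.9%. Both comparisons use the same 0 h libraries, so their results are not independent of each other. These are bulk libraries, in which more cells that express a gene and more RNA per cell cannot be told apart.

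As fitted, all of these rises were under 1.5-fold. Not 1 of the 10 transcripts reached the 1.5-fold change used as a threshold in the study together with an adjusted p of 0.05 in edgeR or DESeq2, or with an unadjusted p, at either time or between the later times, beside 2.29% of all genes at 12 h, 2.27% at 24 h and 0.29% between them. The edgeR fold changes of those that rose lay between 1.19-fold for *Slc1a4* and 1.38-fold for *Slc7a11* at 12 h, and between 1.11-fold for *Slc7a5* and 1.42-fold for *Slc7a11* at 24 h. Without replicate 2 at 0 h, *Slc7a11* reached that threshold at 24 h, at 0.62 on the log2 scale (adjusted p = 0.0027, edgeR).

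**Figure D1:**
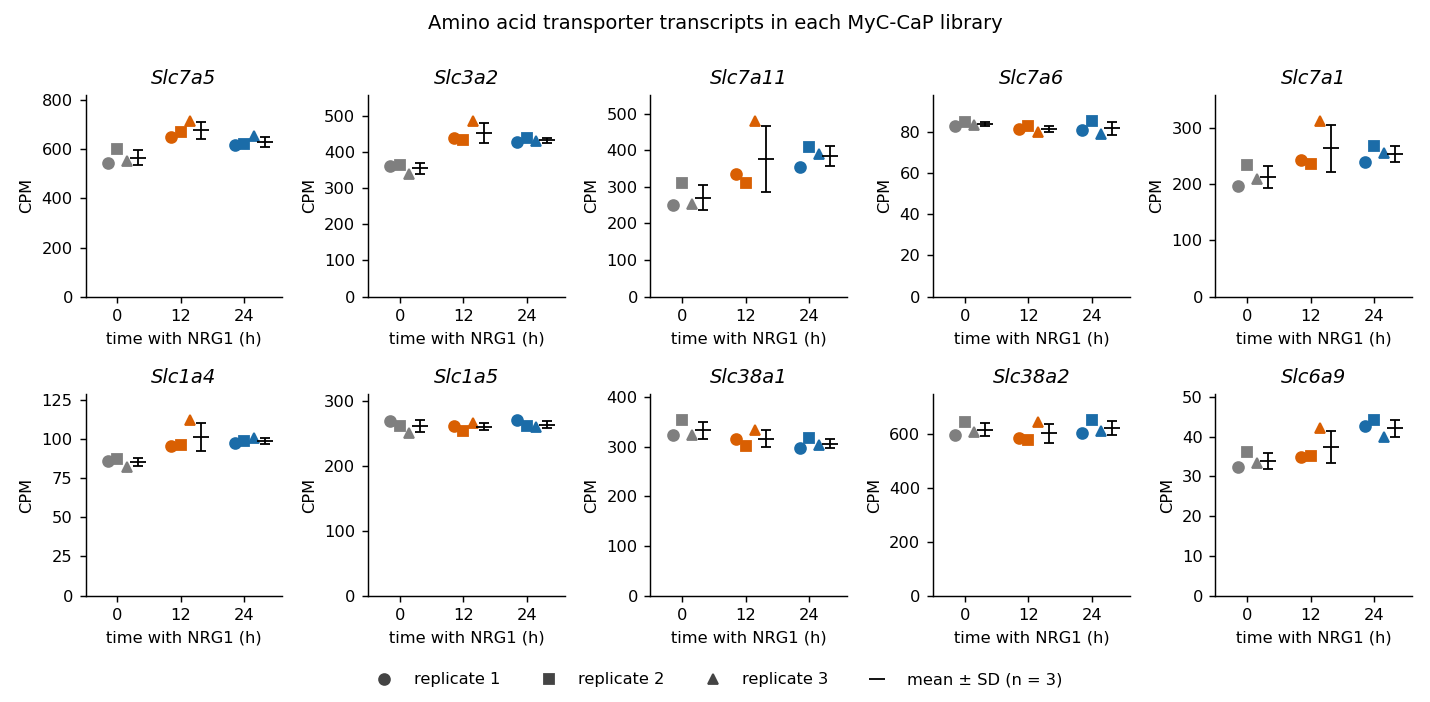
CPM of each transporter transcript in the 9 libraries, 1 panel per gene, with the time with NRG1 in hours on the horizontal axis and CPM from 0 on the vertical axis. Symbols mark replicates, and the bar beside them is the mean ± SD of 3 libraries. For *Slc3a2*, *Slc7a5*, *Slc7a11*, *Slc7a1* and *Slc1a4* every library at 12 and 24 h lies above every library at 0 h, while the *Slc1a5* and *Slc38a2* values at the 3 times overlap.

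The heavy chain and its partners came first. *Slc3a2* (ENSMUSG00000010095.13, GRCm38 chromosome 19, 8706882 to 8723369, minus strand) encodes CD98hc, the subunit that carries the light chains to the membrane. It was at 361, 364 and 338 CPM in replicates 1 to 3 at 0 h, at 439.7, 434 and 484 CPM at 12 h, and at 426, 439 and 430.1 CPM at 24 h. The lowest treated library was therefore above the highest 0 h library. *Slc3a2* rose by a log2 fold change of 0.35 ± 0.044 (SE) at 12 h (adjusted p = 2.07e-05, edgeR) and of 0.29 ± 0.044 at 24 h (adjusted p = 0.000197, edgeR), the smallest adjusted p of the 10 transcripts at both times, and it passed in each of the 9 fits that left out 1 library.

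*Slc7a5* (ENSMUSG00000040010.10, chromosome 8, 121881150 to 121907694, minus strand) encodes LAT1, which imports leucine and other large neutral amino acids in exchange for glutamine. It stood at 544, 603 and 553 CPM at 0 h, 649.6, 669 and 715 CPM at 12 h, and 618, 623 and 654 CPM at 24 h. At both times its libraries did not overlap those at 0 h, although the lowest 24 h value was close to the 603 CPM of replicate 2 at 0 h. The log2 fold change was 0.26 ± 0.045 at 12 h (adjusted p = 0.000484, edgeR) and 0.16 ± 0.045 at 24 h (adjusted p = 0.0229, edgeR). At 24 h it no longer passed when replicate 1 or 3 of 0 h was left out (adjusted p = 0.0817 and 0.0713, edgeR), or replicate 3 of 24 h (0.112). Between 12 and 24 h the fitted change was -0.10 ± 0.045, with an unadjusted p of 0.037 and an edgeR adjusted p of 0.214.

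*Slc7a11* (ENSMUSG00000027737.10, chromosome 3, 49892526 to 50443614, minus strand) encodes xCT, which takes up cystine, a precursor of glutathione, and releases glutamate. Its libraries held 250.1, 310.3 and 253 CPM at 0 h, 336, 312 and 479 CPM at 12 h, and 356, 408 and 389.6 CPM at 24 h. The 12 h libraries were spread most widely, and replicate 2 at 12 h, with 311.8 CPM, barely cleared replicate 2 at 0 h, with 310.3 CPM. *Slc7a11* had the largest fitted change of the 10 transcripts, with a log2 fold change of 0.47 ± 0.12 at 12 h (adjusted p = 0.00717, edgeR) and 0.50 ± 0.12 at 24 h (adjusted p = 0.00643, edgeR). Without replicate 3 at 12 h, the 12 h change was 0.27 (adjusted p = 0.00859, edgeR), and a difference of 0.24 between 12 and 24 h then passed (adjusted p = 0.0410, edgeR), where with all libraries that difference was 0.034 (adjusted p = 0.908, edgeR). DESeq2 gave an adjusted p of 0.0527 at 12 h and 0.0462 at 24 h.

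*Slc7a6* (ENSMUSG00000031904.5, chromosome 8, 106168857 to 106198706, plus strand) encodes y+LAT2, a light chain that exchanges intracellular arginine for extracellular glutamine. It was the steadiest of the 10 at 0 h, with 82.8, 84.6 and 83.4 CPM, followed by 81.3, 82.5 and 80.1 CPM at 12 h and 80.8, 85.0 and 78.9 CPM at 24 h. All 12 h libraries were slightly below all 0 h libraries, which was so for 18.5% of all genes. The fitted change was -0.041 at 12 h (95% interval -0.12 to 0.043, edgeR adjusted p = 0.497) and -0.037 at 24 h (95% interval -0.12 to 0.047, edgeR adjusted p = 0.590). These intervals reach 0.12 below and 0.047 above 0 on the log2 scale.

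**Figure D2:**
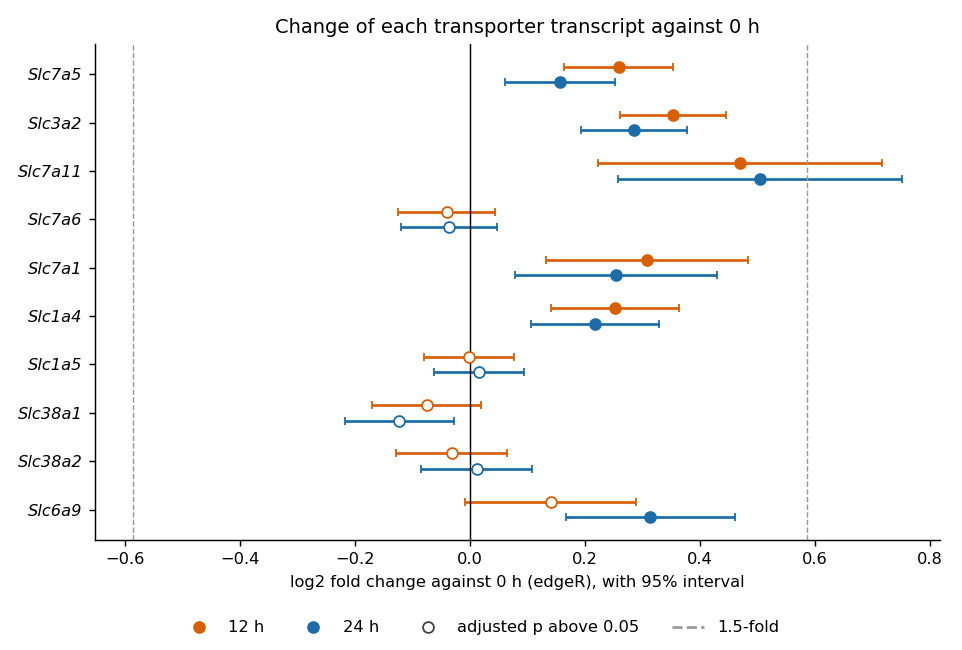
Log2 fold change of each transporter transcript against 0 h from edgeR (horizontal axis), at 12 h and at 24 h, with 95% intervals. Filled symbols have an adjusted p of at most 0.05, open symbols do not, and dashed lines mark 1.5-fold. The 5 filled genes at 12 h and 6 at 24 h all lie to the right of 0 and short of the 1.5-fold line, which the intervals of *Slc7a11* cross.

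Levels of different genes were then compared per kilobase of exons. At 0 h, *Slc7a5* was highest with 152.8 ± 8.56 CPM per kb (SD, n = 3), followed by *Slc3a2* with 100.4 ± 4.07, *Slc38a2* with 69.6 ± 2.87 and *Slc1a5* with 62.4 ± 2.23 CPM per kb. Each of these was separated from its neighbours in every library. *Slc1a4*, *Slc7a11*, *Slc38a1*, *Slc7a1* and *Slc7a6* followed between 21.6 and 18.3 CPM per kb, and each overlapped the next in this order. *Slc6a9* was lowest, with 6.58 ± 0.378 CPM per kb, below all others. With the longest transcript in place of all exons, the order of those in ranks 5 to 9 changed and the other ranks did not. Ranks 5 to 9 then ran from 45.9 CPM per kb for *Slc38a1* to 21.6 CPM per kb for *Slc1a4*, so their narrow band depends on the length used.

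**Figure D3:**
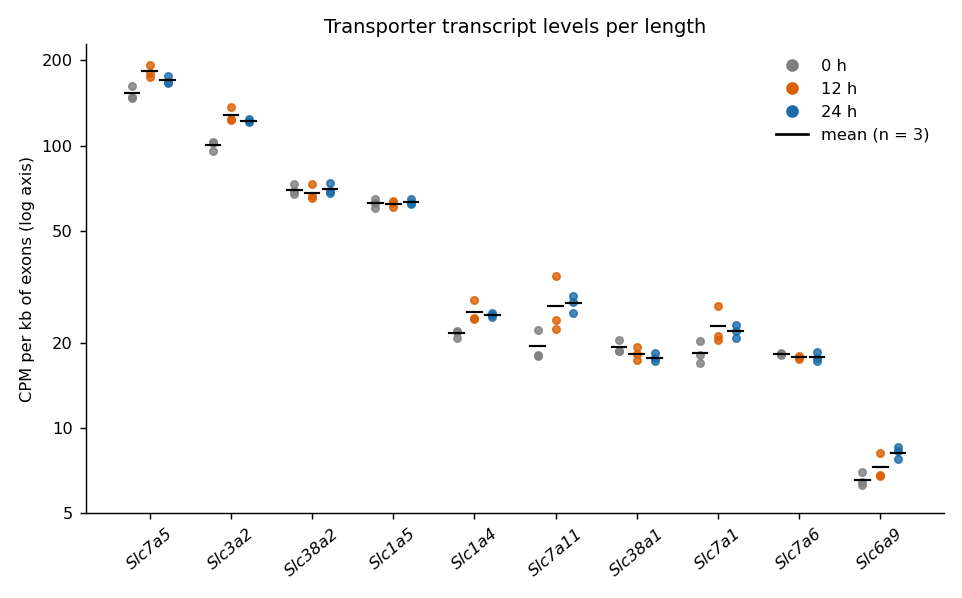
Levels per kilobase of exons (vertical axis, CPM per kb, log scale) of the 10 transcripts, ordered by their mean at 0 h, in the 3 libraries at each time with a line at the mean. *Slc7a5* and *Slc3a2* lead at all 3 times, *Slc6a9* is lowest, and with all exons as length 5 genes share a band near 20 CPM per kb at 0 h.

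The light chains that pair with CD98hc were then set against it on the scale per kilobase. Of the known partners, *Slc7a5*, *Slc7a6*, *Slc7a7*, *Slc7a8* and *Slc7a11* were in the table, *Slc7a8* with at most 0.0652 CPM, and *Slc7a10* was not analysed here. Their summed level was 1.92 ± 0.10 times that of *Slc3a2* at 0 h (SD, n = 3), 1.78 ± 0.028 times at 12 h and 1.78 ± 0.047 times at 24 h, with ranges of 1.80 to 1.99, 1.75 to 1.81 and 1.75 to 1.83 that overlap. *Slc7a5* made up 79.4%, 80.0% and 78.4% of the light chain transcripts at the 3 times. The share of *Slc7a11* was 10.1% ± 0.67 at 0 h (9.67 to 10.9%), 11.7% ± 2.05 at 12 h (10.1 to 14.0%) and 12.7% ± 0.716 at 24 h (12.1 to 13.5%), so that the 24 h libraries lay above the 0 h libraries and the 12 h libraries overlapped both. With the longest transcript as length, *Slc7a5* made up 74.8%, 75.1% and 73.3%, and *Slc7a11* 13.6%, 15.7% and 17.0%. These shares were not tested.

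The cationic carrier *Slc7a1* (ENSMUSG00000041313.14, chromosome 5, 148327410 to 148399904, minus strand) encodes CAT1, which imports arginine and lysine without a heavy chain. Its values were 196, 234 and 209 CPM at 0 h, 244, 237 and 312 CPM at 12 h, and 240.0, 268 and 255 CPM at 24 h. Groups did not overlap, but replicate 2 at 12 h was only just above replicate 2 at 0 h. The log2 fold change was 0.31 ± 0.083 at 12 h (adjusted p = 0.0116, edgeR) and 0.25 ± 0.083 at 24 h (adjusted p = 0.0432, edgeR). It was 0.18 at 12 h without replicate 3 of that time (adjusted p = 0.0230, edgeR). *Slc7a1* was the least secure of the transcripts that rose. Without replicate 1 at 0 h it passed at neither time (adjusted p = 0.0615 and 0.169, edgeR), at 24 h it also failed when replicate 3 of 0 h (0.104) or replicate 2 or 3 of 24 h (0.136 and 0.110) was left out, and DESeq2 gave adjusted p-values of 0.0594 and 0.168.

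Both SLC1 carriers in the set exchange small neutral amino acids together with sodium. *Slc1a4* (ENSMUSG00000020142.12, chromosome 11, 20302180 to 20332713, minus strand) encodes ASCT1, which carries serine, alanine and cysteine. It was at 85.9, 86.8 and 82.0 CPM at 0 h, 95.4, 96.3 and 111.6 CPM at 12 h, and 97.0, 98.6 and 100.5 CPM at 24 h. The 3 times differed in that every later library was above every 0 h library. *Slc1a4* rose by 0.25 ± 0.053 on the log2 scale at 12 h (adjusted p = 0.00203, edgeR) and by 0.22 ± 0.052 at 24 h (adjusted p = 0.00828, edgeR). Without replicate 3 at 12 h, the 12 h change was 0.19 (adjusted p = 0.00248, edgeR).

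*Slc1a5* (ENSMUSG00000001918.17, chromosome 7, 16781340 to 16798274, plus strand) encodes ASCT2, a main route for glutamine. Its libraries held 269, 260.7 and 251 CPM at 0 h, 261, 254 and 265 CPM at 12 h, and 269, 260.4 and 259 CPM at 24 h. These groups overlapped throughout. The fitted change was -0.0011 at 12 h (95% interval -0.079 to 0.077, edgeR adjusted p = 0.989) and 0.015 at 24 h (95% interval -0.063 to 0.093, edgeR adjusted p = 0.833). The ratio of *Slc1a4* to *Slc1a5* counts was 0.319 to 0.333 at 0 h, 0.366 to 0.421 at 12 h and 0.360 to 0.388 at 24 h, without overlap between 0 h and either later time. This difference between the 2 genes was not tested.

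The SLC38 carriers take up glutamine and other small neutral amino acids with sodium. *Slc38a1* (ENSMUSG00000023169.15, chromosome 15, 96571418 to 96642913, minus strand), which encodes SNAT1, had 324, 353 and 324 CPM at 0 h, 315, 301 and 334 CPM at 12 h, and 298, 317 and 304 CPM at 24 h. Here the 24 h libraries all lay below the 0 h libraries, which was so for 17.9% of all genes, while the 12 h libraries overlapped both. The fitted change was -0.075 at 12 h (95% interval -0.17 to 0.020, edgeR adjusted p = 0.245) and -0.12 ± 0.045 at 24 h, where the unadjusted p of 0.0147 gave an edgeR adjusted p of 0.0717. The 24 h change passed under 3 other fits, with no filter on low counts (adjusted p = 0.0316, edgeR), with only the 6 libraries compared (0.0426) and without replicate 3 at 12 h (0.0385).

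*Slc38a2* (ENSMUSG00000022462.7, chromosome 15, 96687392 to 96699730, minus strand) encodes SNAT2, which is known to be induced when amino acids are scarce. In these libraries it was at 595, 644 and 608 CPM at 0 h, 586, 577 and 643 CPM at 12 h, and 602, 649 and 609.8 CPM at 24 h. The 3 groups spanned nearly the same range. The fitted change was -0.032 at 12 h (95% interval -0.13 to 0.065, edgeR adjusted p = 0.656) and 0.012 at 24 h (95% interval -0.085 to 0.11, edgeR adjusted p = 0.901). The ratio of *Slc38a2* to *Slc38a1* counts was 1.82 to 1.88 at 0 h, 1.86 to 1.93 at 12 h and 2.00 to 2.05 at 24 h, and was not tested.

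*Slc6a9* (ENSMUSG00000028542.17, chromosome 4, 117834506 to 117875198, plus strand) encodes the glycine transporter GLYT1, and 30.2% of its exonic bases are shared with genes of the opposite strand, *B4galt2*, *Ccdc24* and *Gm17114*, so that part of its counts cannot be told apart from theirs unless strand was used in counting. It had 32.2, 36.0 and 33.3 CPM at 0 h, 34.9, 35.2 and 42.1 CPM at 12 h, and 42.5, 44.0 and 39.8 CPM at 24 h. Only replicate 3 at 12 h reached the range of the 24 h libraries, and the other two 12 h libraries lay within the range at 0 h. *Slc6a9* was 0.14 ± 0.070 higher on the log2 scale at 12 h, which did not pass (adjusted p = 0.159, edgeR), and rose by 0.31 ± 0.069 at 24 h (adjusted p = 0.00453, edgeR). Without replicate 3 at 12 h, the 12 h change was 0.058 (adjusted p = 0.538, edgeR). From 12 to 24 h the fitted change was 0.17 (adjusted p = 0.164, edgeR), or 0.26 without replicate 3 at 12 h (adjusted p = 0.0118, edgeR).

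The test for any difference among the 3 times was passed by 6 of the 10 transcripts, the same 6 as at 24 h, beside 27.4% of all genes. DESeq2 gave 4. *Slc3a2* had the smallest edgeR adjusted p, 3.63e-05, and *Slc7a1* the largest of those that passed, 0.0214. Of the 4 that did not pass, *Slc38a1* had an edgeR adjusted p of 0.118 and *Slc7a6*, *Slc38a2* and *Slc1a5* had 0.663, 0.726 and 0.925.

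Replicates of 1 time were next compared with each other. At 0 h, replicate 2 held the highest value of 9 of the 10 transcripts, all but *Slc1a5*, whereas 34.4% of all genes tested were highest there. At 12 h, replicate 3 held the highest value of 9, all but *Slc7a6*, against 37.2% of all genes, and at 24 h replicate 2 held the highest value of 7, against 33.5% of all genes. Summed over the 10 transcripts, CPM ran from 2733 to 2976 at 0 h, from 2996 to 3467 at 12 h and from 3029 to 3192 at 24 h, so the lowest later library was above the highest 0 h library by less than the range within any time. The ATF4 response genes were highest in the same libraries. Of 21 tested, 17 were highest in replicate 2 at 0 h, 17 in replicate 3 at 12 h and 12 in replicate 2 at 24 h. *Atf4* itself was at 308, 347 and 324 CPM at 0 h and at 429, 423 and 489 CPM at 12 h, again with replicates 2 and 3 highest.

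The spread between replicates was uneven across the set. At 12 h the coefficient of variation was 24.1% for *Slc7a11*, 15.8% for *Slc7a1*, 10.9% for *Slc6a9* and 9.03% for *Slc1a4*, while 90% of genes with at least 30 CPM were below 8.04%. At 24 h *Slc7a11* varied by 6.94% and *Slc1a4* by 1.75%. *Slc7a6* and *Slc1a5* varied by 1.51% and 2.22% at 12 h, below the median of 3.69% for such genes.

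**Figure D4:**
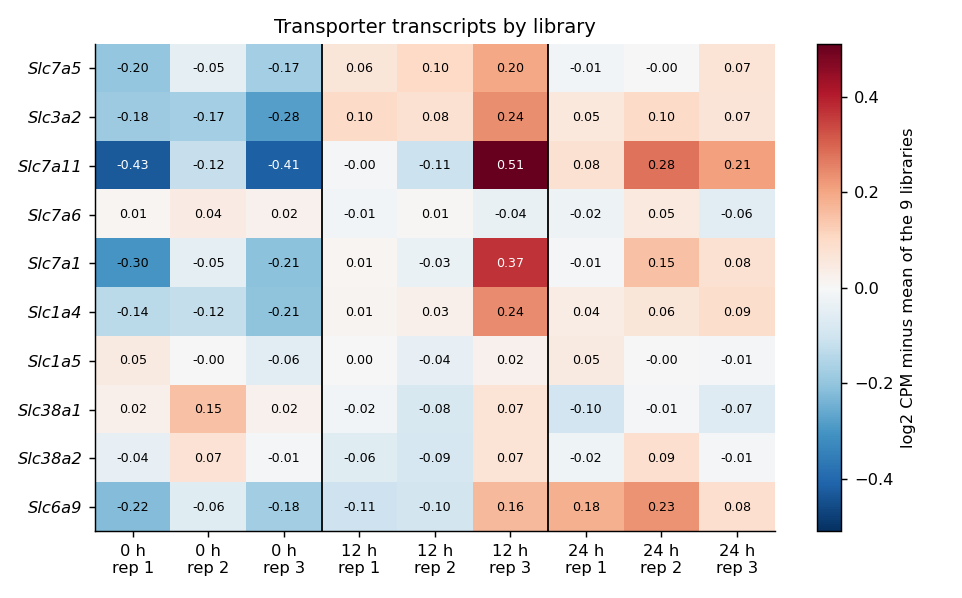
Log2 CPM of each transporter transcript in each library minus its mean over the 9 libraries, with time and replicate on the horizontal axis and vertical lines between times. Red is above and blue below the mean. The *Slc7a11* and *Slc7a1* rows run from blue at 0 h to their darkest red in replicate 3 at 12 h, and the *Slc7a6* and *Slc1a5* rows stay near 0 throughout.

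Across the 9 libraries, *Slc7a1* and *Slc7a11* followed each other most closely (Pearson r of log2 CPM = 0.975), then *Slc3a2* and *Slc1a4* (r = 0.965). The genes outside the set most like its mean standardised pattern were *Suco* (r = 0.965), the integrin gene *Itga5* (r = 0.964), the phosphatase gene *Ptpn14* (r = 0.955), the heat shock gene *Hspa4l* (r = 0.941) and *Glce* (r = 0.938), a gene of heparan sulfate synthesis. These r values describe likeness over 9 libraries that share 3 time points, and carry no p. They were picked from these same libraries for likeness to a set in which most transcripts rose, so their own rises are not a separate result. Of these genes, only *Itga5* passed at both times, higher by 0.23 and 0.26 on the log2 scale (adjusted p = 0.0216 and 0.0162, edgeR). Without replicate 1 at 0 h it passed at neither time (adjusted p = 0.0695 and 0.0572, edgeR), and at 12 h it did not pass without replicate 3 of that time, at 0.13 (adjusted p = 0.0636, edgeR).

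Other amino acid transporters were counted in the same way. Of 21 further plasma membrane carriers in the table, 8 passed the filter on low counts. In edgeR 0 rose and 3 fell at 12 h, and 0 rose and 1 fell at 24 h, beside the 13.6% higher and 11.9% lower of all genes at 12 h and 9.67% and 7.76% at 24 h. DESeq2 gave the same 4 counts. At an unadjusted p under 0.05 edgeR gave 0 higher and 3 lower, then 0 higher and 2 lower. Their median log2 fold change was -0.11 at 12 h and -0.10 at 24 h. *Slc43a2*, which encodes LAT4, a carrier of branched-chain amino acids and methionine that works without CD98hc, was at 121, 130.5 and 134 CPM at 0 h, at 83.5, 87.8 and 81.1 CPM at 12 h, and at 85.0, 81.8 and 86.4 CPM at 24 h. All 6 later libraries were far below the 3 at 0 h. It fell by 0.61 on the log2 scale at both times (adjusted p = 1.85e-07 and 2.55e-07, edgeR), more than 1.5-fold, and by 0.58 at 12 h without replicate 3 of that time (adjusted p = 7.93e-08, edgeR), which is just short of it. *Slc7a7*, the light chain y+LAT1, was at 5.18, 5.66 and 7.03 CPM at 0 h and at 3.97, 3.92 and 3.88 CPM at 12 h, and fell by 0.61 (adjusted p = 0.00228, edgeR), while at 24 h it was at 5.14, 4.88 and 4.53 CPM (log2 fold change -0.30, edgeR adjusted p = 0.104). The taurine carrier gene *Slc6a6*, named outside the naming rule, was the most abundant of this list at 1001 CPM. Its 12 h change was -0.12 (adjusted p = 0.0479, edgeR). That change did not pass without replicate 1 at 0 h (adjusted p = 0.0744, edgeR), and was -0.15 without replicate 3 at 12 h (adjusted p = 0.00725, edgeR).

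Of 17 tested transporters of lysosomes and mitochondria, 1 rose and 3 fell at 12 h, and 0 rose and 3 fell at 24 h in edgeR, with medians of -0.093 and -0.055, beside shares over all genes of 13.6% higher and 11.9% lower at 12 h and 9.67% and 7.76% at 24 h. At 24 h, 2 were higher at an unadjusted p under 0.05 in edgeR, and DESeq2 gave 0 higher and 2 lower. Of these 17, 1 was called at 1.5-fold at each time, beside 2.29% and 2.27% of all genes. It was *Slc7a14*, named outside the naming rule, with a mean of 0.497 CPM and at most 33 counts. It fell by 1.14 and 1.02 (adjusted p = 0.0194 and 0.0393, edgeR), and 0 were called at 24 h without replicate 1 at 0 h. The lysosomal histidine and peptide carrier gene *Slc15a3* fell by 0.42 at 24 h (adjusted p = 0.000776, edgeR), with 28.1% of its exonic bases shared with *Tmem132a* on the opposite strand. The nucleoside carrier gene *Slc29a3* fell by 0.35 at 12 h (adjusted p = 0.0341, edgeR), but did not pass without replicate 3 at 12 h or replicate 1 at 0 h (adjusted p = 0.0848 and 0.0695, edgeR).

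Genes of the pathways that act on these transporters were then counted. Of 21 tested genes of the ATF4 amino acid response, 18 rose and 1 fell at 12 h, and 19 rose and 2 fell at 24 h, with medians of 0.42 and 0.41, beside 13.6% higher and 11.9% lower of all genes at 12 h and 9.67% and 7.76% at 24 h. The 10 transporters are not in that list. Without replicate 3 at 12 h, 18 rose and 0 fell at 12 h. The number called at 1.5-fold at 12 h was then 1, in place of 5 with all libraries. With all libraries, 2.29% of all genes were called at 12 h, and the share without that library is not given here. *Trib3*, which encodes an inhibitor of ATF4, rose by 0.67 and 0.60 (adjusted p = 4.41e-05 and 0.000152, edgeR), and *Aldh1l2*, *Chac1* and *Nupr1* also passed 1.5-fold at both times, *Aldh1l2* with 14.1% of its exonic bases shared with another gene. Without replicate 3 at 12 h, the 12 h changes of *Trib3*, *Aldh1l2* and *Nupr1* were 0.53, 0.55 and 0.56, under 1.5-fold, and that of *Chac1* was 0.60, still above it. All 4 then passed at an adjusted p of at most 0.05 in edgeR, and *Aldh1l2* was also under 1.5-fold at 12 h without replicate 1 at 0 h, at 0.58. *Atf4* rose from a 0 h mean of 326 ± 19.5 CPM (SD, n = 3), with later means of 447 ± 36.8 and 439 ± 6.27 CPM, by 0.45 ± 0.052 and 0.43 ± 0.052 on the log2 scale (adjusted p = 1.11e-05 and 2.27e-05, edgeR). The members that fell were *Cbs* at both times, which encodes an enzyme that makes cystathionine and at 12 h did not pass without either library that stood apart, and *Eif2ak4*, which encodes the kinase GCN2, at 24 h, by 0.12 (adjusted p = 0.0228, edgeR).

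Of 14 tested genes of the NRF2 and glutathione list, 6 rose and 1 fell at 12 h, and 1 rose and 0 fell at 24 h, with medians of 0.12 and 0.024, beside the same shares over all genes. DESeq2 gave 7 higher and 1 lower at 12 h and 1 higher and 0 lower at 24 h, and 0 were lower there at an unadjusted p under 0.05 in edgeR. *Hmox1*, the heme oxygenase gene, rose by 0.76 at 12 h (adjusted p = 9.99e-05, edgeR) and 0.43 at 24 h (adjusted p = 0.0150, edgeR). The 12 h change was 0.60 without replicate 3 at 12 h (adjusted p = 5.97e-05, edgeR), and at 24 h it did not pass without replicate 1 at 0 h (adjusted p = 0.0549, edgeR). *Nfe2l2*, which encodes NRF2, was 0.086 and 0.096 higher (adjusted p = 0.206 and 0.191, edgeR). The mouse gene *Myc*, a known regulator of several of these carriers, was 0.16 lower at 12 h (adjusted p = 0.113, edgeR) and 0.080 higher at 24 h (adjusted p = 0.481, edgeR), neither of which passed. Reads were aligned to the mouse genome, so the human MYC transgene of this line has no count of its own here. Its level was not tested, nor was whether any of its reads were counted under mouse *Myc*.

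Among 29 tested genes by which mTORC1, the growth kinase that responds to imported leucine and arginine, senses amino acids, 4 rose and 7 fell at 12 h, and 2 rose and 3 fell at 24 h, with medians of -0.036 and -0.046. The shares over all genes were 13.6% higher and 11.9% lower at 12 h and 9.67% and 7.76% at 24 h, to which the counts were close except for the 7 that fell at 12 h. *Sesn3* and *Sesn1*, which encode sestrins, proteins that restrain mTORC1, fell by 0.43 and 0.33 at 12 h (adjusted p = 4.55e-06 and 1.07e-05, edgeR) and by 0.41 and 0.24 at 24 h (adjusted p = 5.96e-06 and 0.000274, edgeR). The sestrin gene *Sesn2*, counted in the ATF4 list, went the other way. It rose by 0.52 at 12 h and 0.40 at 24 h (adjusted p = 0.000149 and 0.00209, edgeR).

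**Figure D5:**
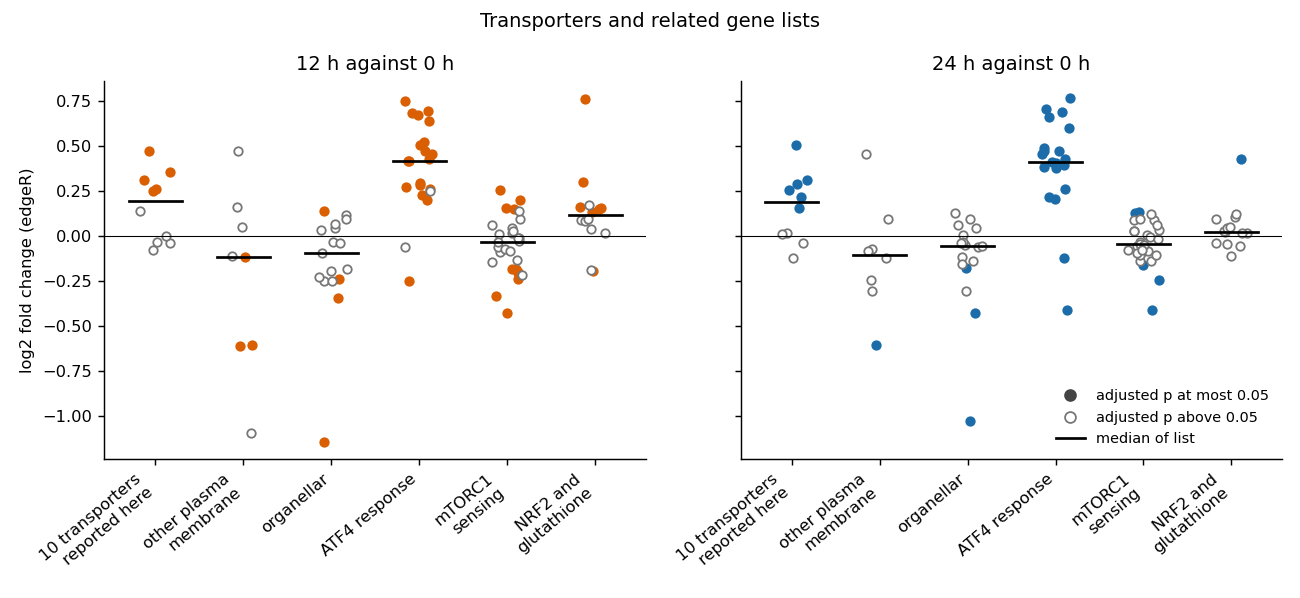
Log2 fold change against 0 h from edgeR (vertical axis) of the 10 transporters and of 5 related lists, at 12 h (left) and 24 h (right), 1 point per tested gene with a line at the median. Filled points have an adjusted p of at most 0.05. The medians of the transporters and of the ATF4 response lie above 0 at both times, and those of the other plasma membrane and the organellar transporters below 0.

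Apart from *Pdgfra*, marker genes of other cell types were low at every time. The 0 h mean of *Pdgfra*, a fibroblast marker, was 16.8 CPM, close to the 18.2 CPM of the luminal marker *Krt8*. The summed level of 6 fibroblast markers ran from 15.3 to 18.01 CPM over the 9 libraries, nearly all of it *Pdgfra*, and no other marker of that list reached 1 CPM. Sums over 6 immune and 5 endothelial markers were at most 1.11 and 0.359 CPM. Of the luminal markers, *Krt8* and *Hoxb13* rose at 12 h, by 0.30 and 0.28 on the log2 scale (adjusted p = 0.0169 and 0.000168, edgeR), and *Krt8* at 24 h by 0.34 (adjusted p = 0.0107, edgeR). The part of either in the transporter values was not tested.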

How the data were processed

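Counts of reads per gene were deposited by the authors as 1 table of 15552 protein-coding genes in 9 libraries, without normalization. Per the labels and the study's methods, the authors prepared TruSeq mRNA libraries from total RNA, sequenced paired ends of 150 bp, trimmed them with Cutadapt, aligned them with STAR to GRCm38.p6 with GENCODE annotation M24, and counted them with featureCounts. A strand setting is not given in the sources used here, nor is the handling of reads that match several genes. Coordinates, exon lengths and overlaps were taken from GENCODE M21, in which all 10 transporters have equal identifiers and positions.

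The labels gave the time of each library and named no batch. Genes were filtered with filterByExpr, which left 11373, scaled by TMM, and fitted over all 9 libraries with glmQLFit and glmQLFTest in edgeR 4.0.16 (R 4.3.3). P-values were two-sided and adjusted by Benjamini-Hochberg over all genes tested. A gene rose or fell, or passed, at an adjusted p of at most 0.05, and was called when it also changed at least 1.5-fold. Each SE is the log2 fold change divided by the square root of F, and log2 CPM used a prior count of 2. Alternatives were size factors (RLE), total counts, no filter, DESeq2 1.42.0, a replicate block, glmTreat, only the 6 libraries compared, the longest transcript as length, and leaving out each library. A total of 3 counts, the level below which a gene was taken as undetected, was 0.0764 to 0.106 CPM, for counting error only. The scripts were tested on simulated data.

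The transporters and all lists were chosen with earlier results of these data known, and the lists come from general knowledge. The naming rule took all 10 transporters, up to 4 called genes per list with a mean of at least 1 CPM or else the 2 largest changes that passed, *Atf4*, *Nfe2l2*, *Myc*, and the 5 genes of at least 10 CPM most like the transporters' mean by Pearson r. From the luminal marker list, 1 gene is not reported here.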

Additional observations from a re-analysis of the deposited data

How the results depend on the processing

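Over the fits tried, the 10 transporters gave few changes of direction or of side of the threshold, and 0 passed as lower at 12 h in any of them. With DESeq2, the number higher at 12 h was 3 in place of 5. The number lower at 24 h was 1 with no filter on low counts and 1 with only the 6 libraries compared, and the number higher from 12 to 24 h was 1 with no filter. Leaving out 1 library at a time gave 4 to 5 higher at 12 h, 4 to 6 higher and 0 to 1 lower at 24 h, 0 to 1 called at 1.5-fold at 24 h, 0 to 2 higher from 12 to 24 h, and 5 to 6 in the test over all times. The level of the light chains over *Slc3a2* at 0 h was 1.71 with the length of the longest transcript, against 1.92. The cause of these differences was not tested, apart from the other lengths in the last.

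Signs turned only where the main fit did not pass. Of these changes, that of *Slc7a11* from 12 to 24 h passed without replicate 3 at 12 h (adjusted p = 0.0410, edgeR). The 12 h change of *Slc1a5* was 0.00069 with no filter and 0.00055 with DESeq2, and ran from -0.020 to 0.024 when single libraries were left out. In the same way, *Slc38a2* ran from -0.072 to 0.0065 at 12 h and from -0.017 to 0.049 at 24 h, and *Slc1a5* from -0.0056 to 0.040 at 24 h. From 12 to 24 h, *Slc7a1* ran from -0.12 to 0.078, *Slc7a6* from -0.029 to 0.034, *Slc7a11* from -0.079 to 0.24 and *Slc1a4* from -0.075 to 0.037.

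A fit with the replicate number as a block left the transporter counts at 5, 6, 0 and 6 and moved the genes passing from 2896 to 2956 at 12 h, from 1982 to 2039 at 24 h and from 572 to 609 between them. Libraries with the same number correlated in their deviations from the group means by -0.074 to 0.13 in 9 pairs, and 4 of 9 libraries correlated best with their own number, so the numbers were not taken as pairs. Between 12 and 24 h, the number of all genes passing was 950 with no filter, 879 without replicate 3 at 12 h and 214 to 263 without replicate 1 at 12 h or any 24 h library, against 572. The number called there was 53 with no filter and 16 without replicate 1 at 24 h, against 33. With glmTreat, 4, 6 and 0 genes changed by more than 1.5-fold, against 261, 258 and 33 called.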
